A study of Bos taurus with 20 samples.

Results

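The BCL2 family and the caspases that stand beside it were followed in the mammary tissue of 5 Holstein Friesian cows in mid lactation, in which intramammary infection with Escherichia coli had been induced. The genes were 4 that protect cells from death (BCL2, BCL2A1, BCL2L1 and MCL1), 3 that promote it (BAX, BAK1 and BID), and the caspases CASP4 and CASP8. Members were all probe sets of the Affymetrix GeneChip Bovine Genome Array to which the annotation of the array gives 1 of these symbols and no other. These were 12 of 24016 probe sets, for 7 of the 9 genes. BCL2 had 5 probe sets, CASP4 had 2, and BCL2A1, BCL2L1, MCL1, BAX and BAK1 had 1 each, while BID and CASP8 had none in the annotation used here and were not analysed.

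Each cow gave the 4 mammary glands of its udder. NC glands were neither challenged nor treated. CNT glands were challenged through the teat with 100 colony forming units of E. coli and left untreated. CF glands were challenged likewise and infused with 300 mg cefapirin, a cephalosporin antibiotic, and CFPD glands with 300 mg cefapirin and 20 mg prednisolone, a glucocorticoid. The first infusion came at 4 h and others at 12, 24 and 36 h after challenge, as far as these fell before tissue was taken. Tissue of cows 4 and 5 was taken 24 h after challenge and that of cows 1, 2 and 3 after 48 h. Each group thus has 2 arrays at the earlier and 3 at the later time point, 20 in all. Time points therefore compare different cows and cannot be told apart from them. The NC gland was the right front and the CNT gland the left front one in every cow, so position and group cannot be told apart either. By the labels the CF gland was the left rear one in cows 1, 3 and 4 and the right rear one in cows 2 and 5, with CFPD on the other side. Whether CF and CFPD are the right way round in cows 2 and 5 is in doubt, because the fold changes listed with the study lie nearer to the arrays when both labels are exchanged in these cows. Comparisons of CF and CFPD with CNT glands are therefore also given in that form, and the arrays alone do not settle it. Results that treat CF and CFPD glands alike (treated glands) do not depend on this.

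In mammals the decision for apoptosis is made largely at the outer membrane of the mitochondrion. BAX and BAK1 form pores there that release cytochrome c, and BCL2, BCL2L1, MCL1 and BCL2A1 hold them back by binding them and their activators. Downstream, caspases cleave proteins at aspartate and take the cell apart. CASP4 belongs to the inflammatory branch of the caspases: in humans it binds lipopolysaccharide of Gram-negative bacteria in the cytosol and starts pyroptosis, a lytic death. Neutrophils, the cells that enter the udder in mastitis, live briefly and depend on MCL1 and BCL2A1 for as long as they survive.

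Levels are log2 signals, in which a difference of 1 is a doubling, and levels of different probe sets are not compared with each other. Of the 12 probe sets, 11 passed the filter on low values and were tested at each time point, and Bt.13141.1.A1_at of BCL2 did not. The word called is used where a Benjamini-Hochberg adjusted p was under 0.05 and the change at least 2-fold, in a limma fit across all probe sets. A comparison over 5 cows with the cow as a block is given first, and the separate fits of 2 cows at 24 h and of 3 cows at 48 h follow it. Whether the levels of groups overlap is given as description only, since the share of all probe sets whose groups lie apart was not counted.

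Over the 5 cows, 4 of the 11 tested members were called higher in CNT than in NC glands and none lower, where 3.85% of the 13486 probe sets tested were called higher. They were BCL2A1, both probe sets of CASP4 and 1 probe set of BCL2. The same 4 were called lower in treated than in CNT glands, where 3.36% of all probe sets were. Both comparisons share the CNT arrays and are not independent. Without regard to fold size, 7 of 11 passed as higher in CNT than in NC glands (20.8% of all probe sets) and 9 of 11 as lower in treated than in CNT glands (25.2%). The median difference of the 11 members between CNT and NC glands was 0.72 on the log2 scale, that of all probe sets 0.07. No member and no other probe set was called between treated and NC glands, with 317 of 13486 at an unadjusted p under 0.05 in limma, none of them a member. The tissue was measured whole, so a change in the share of a cell type and a change of RNA within its cells cannot be told apart.

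**Figure D1:**
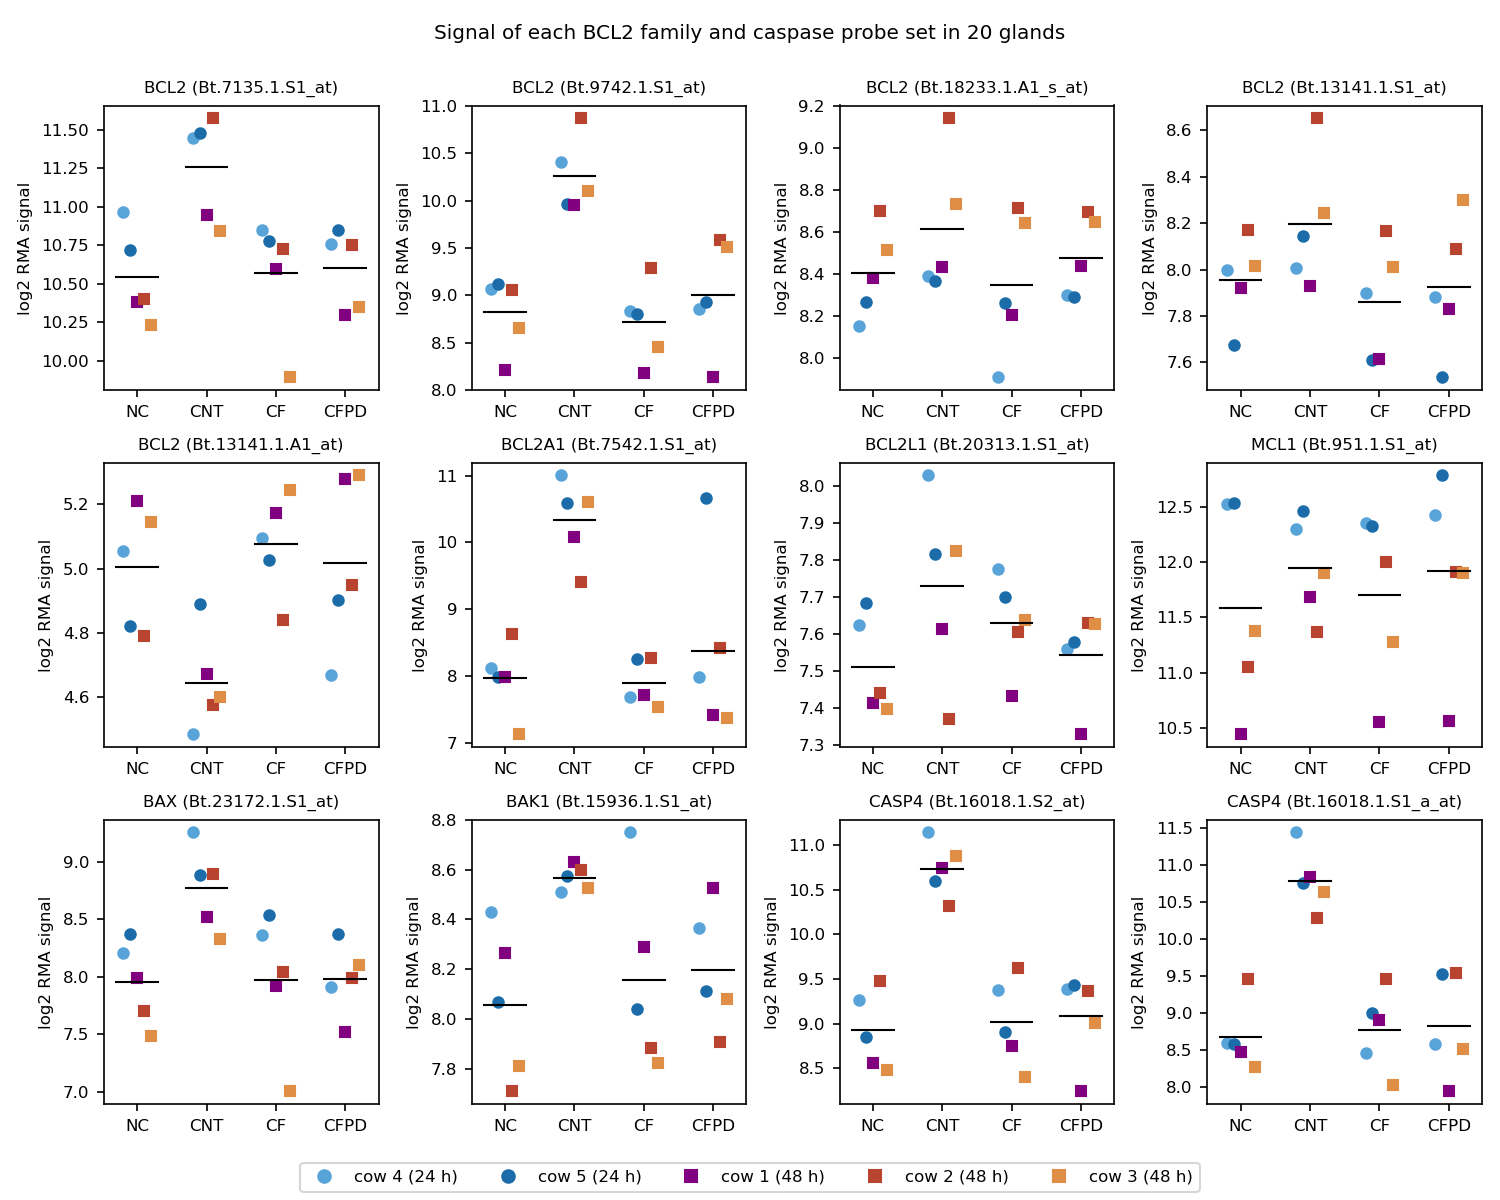
Levels (log2 signal, vertical axes) of the 12 member probe sets in the 20 glands, with 1 panel per probe set, 1 point per gland coloured by cow, circles for 24 h and squares for 48 h, and a black line at the mean of each group of 5 glands. BCL2A1, both CASP4 probe sets, BCL2 Bt.9742.1.S1_at and BAK1 had all 5 CNT glands above all 5 NC glands. For BCL2A1 1 gland labelled CFPD, of cow 5, lay at 10.66 among the CNT glands, and the CF and CFPD labels of that cow are in doubt.

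BCL2A1, a short-lived survival protein whose gene is switched on by NF-kB in leukocytes, had the widest difference of the members over the 5 cows. In NC glands its level was 8.12 and 7.99 in cows 4 and 5 at 24 h, and 7.98, 8.63 and 7.13 in cows 1, 2 and 3 at 48 h. In CNT glands of the same cows it was 11.00 and 10.58, and 10.09, 9.41 and 10.60. All CNT glands lay above all NC glands, and the narrowest difference within a cow, 0.78 in cow 2, was far from the other 4, which lay between 2.11 and 3.48. Means were 7.97 ± 0.54 in NC and 10.34 ± 0.61 in CNT glands (SD, n = 5), a difference of 2.37 (SE 0.42, 95% interval 1.48 to 3.26) or 5.16-fold (adjusted p = 0.00059).

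At 48 h the difference of BCL2A1 was 2.12 (SE 0.42, adjusted p = 0.0218) and was called. That call was lost without the NC or the CNT gland of cow 1 or 3, or without either cow (adjusted p between 0.0561 and 0.18). At 24 h it was 2.74 (SE 0.75), not called with an adjusted p of 0.103, and called with the cow as a block (adjusted p = 0.0365).

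Treated glands held BCL2A1 at 7.69 (CF) and 7.98 (CFPD) in cow 4, and at 8.25 and 10.66 in cow 5. At 48 h the CF glands were at 7.72, 8.27 and 7.54 and the CFPD glands at 7.42, 8.42 and 7.37, in cows 1, 2 and 3. Thus 9 of 10 treated glands lay below the CNT gland of their own cow and inside the range of the NC glands, and the CFPD gland of cow 5 lay above its CNT gland. Treated glands were lower than CNT glands by -2.20 (SE 0.37, adjusted p = 0.000247) over the 5 cows, and by -2.46 (adjusted p = 4.15e-06) when that CFPD gland was left out, a step chosen after its value was seen.

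BCL2, the founding survival protein of the family, gave different answers from its 5 probe sets. Probe set Bt.9742.1.S1_at read 9.07 and 9.12 in NC glands at 24 h and 8.22, 9.06 and 8.66 at 48 h, against 10.41, 9.96, 9.95, 10.87 and 10.10 in CNT glands, in the same order of cows. No CNT gland overlapped with an NC gland or with any of the 10 treated glands, which ranged from 8.13 to 9.59 (median 8.85). The difference between CNT and NC glands was 1.43 (SE 0.17), 2.70-fold (adjusted p = 2.25e-05), and that between treated and CNT glands -1.40 (SE 0.15, adjusted p = 4.67e-06). It was also called at 24 h, with 1.09 (SE 0.18, adjusted p = 0.0337), and at 48 h, with 1.66 (SE 0.42), where the adjusted p lay just under the threshold and rounds to 0.05. The call at 24 h was lost without any 1 gland of NC or CNT except the CNT gland of cow 5 (differences of 0.87 to 1.12, adjusted p between 0.128 and 0.174), and with all 20 arrays in 1 fit (adjusted p = 0.233). The single cows of 24 h had differences of 1.34 and 0.84, and a fit without either is given no p, since 1 array per group is left. That at 48 h was lost without any 1 gland or cow (adjusted p between 0.0717 and 0.214) and in 6 other settings of filter, prior, normalization or labels (adjusted p between 0.0507 and 0.0715). It held with the cow as a block (adjusted p = 0.0021).

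Probe set Bt.7135.1.S1_at of BCL2 moved the same way by less. Its level in NC glands was 10.97 and 10.72 at 24 h and 10.38, 10.40 and 10.23 at 48 h, and in CNT glands 11.45, 11.48, 10.95, 11.57 and 10.84. It passed at the adjusted p over 5 cows (0.72, SE 0.11, adjusted p = 0.000136) but stayed under 2-fold, and CNT was above NC in 5 of 5 cows, although the groups overlapped between cows. Treated glands were lower than the CNT gland of their cow in 10 of 10 cases (-0.68, SE 0.09, adjusted p = 4.59e-05).

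The other 3 probe sets of BCL2 had narrower differences. Bt.18233.1.A1_s_at ranged from 7.91 to 9.14 and Bt.13141.1.S1_at from 7.53 to 8.65 over the 20 glands. Their differences between CNT and NC glands were 0.21 (SE 0.09, adjusted p = 0.0807) and 0.24 (SE 0.10, adjusted p = 0.0718), and did not pass. Between treated and CNT glands both passed under 2-fold, by -0.20 (SE 0.08, adjusted p = 0.0475) and -0.30 (SE 0.09, adjusted p = 0.0108), with 9 of 10 treated glands below the CNT gland of their cow on each. Bt.13141.1.A1_at lay at 4.48 to 5.29, below the array medians of 7.13 to 7.31 on every array, and was not tested. Its mean was 5.00 ± 0.19 in NC, 4.64 ± 0.15 in CNT and 5.05 ± 0.21 in treated glands (SD, n = 5, 5 and 10), a direction opposite to that of the other 4. Which transcripts of BCL2 each probe set detects was not examined, so the gene as a whole is given no direction.

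BCL2L1, whose long protein form, BCL-XL, protects the cell, varied least of the single-probe-set genes, between 7.33 and 8.03. NC glands were at 7.62, 7.68, 7.41, 7.44 and 7.40 and CNT glands at 8.03, 7.82, 7.61, 7.37 and 7.82, in the order of cows 4, 5, 1, 2 and 3. Groups overlapped, with CNT above NC in 4 of 5 cows. The difference of 0.22 (SE 0.09, 95% interval 0.02 to 0.42) did not pass after adjustment (adjusted p = 0.08).

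MCL1, a survival protein with a very short half-life, differed by cow and time point more than by group. At 24 h its level was 12.53 in both NC glands and 12.30 and 12.47 in the CNT glands, and all 8 glands lay between 12.30 and 12.79. At 48 h NC glands were at 10.44, 11.06 and 11.38 and CNT glands at 11.69, 11.37 and 11.91, and the 12 glands lay between 10.44 and 12.00. No gland of 48 h reached the lowest of 24 h, and since the cows differ this is described without a test. Over 5 cows CNT exceeded NC glands by 0.36 (SE 0.21, 95% interval -0.09 to 0.81, adjusted p = 0.205), in 3 of 5 cows, and treated glands differed from CNT glands by -0.14 (SE 0.18, 95% interval -0.53 to 0.25, adjusted p = 0.583), a sign that turned to 0.11 without cow 1.

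BAX, a pore former that waits in the cytosol, passed at the adjusted p without reaching 2-fold. Its level was 8.21, 8.37, 7.99, 7.70 and 7.49 in NC glands and 9.25, 8.88, 8.52, 8.89 and 8.32 in CNT glands, in the order of cows 4, 5, 1, 2 and 3. CNT was above NC in 5 of 5 cows, and at each time point no CNT gland overlapped with an NC gland, although the NC gland of cow 5 lay above the CNT gland of cow 3. The difference was 0.82 (SE 0.17, 1.77-fold, adjusted p = 0.00197). Treated glands, between 7.00 and 8.53, were lower than the CNT gland of their cow in 10 of 10 cases, by -0.80 (SE 0.15, adjusted p = 0.000636).

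BAK1, the pore former that sits in the mitochondrial membrane, differed by 0.51 (SE 0.12, 1.43-fold, adjusted p = 0.00356). Its NC glands lay at 8.43, 8.07, 8.27, 7.71 and 7.81 and its CNT glands at 8.51, 8.57, 8.63, 8.60 and 8.53. CNT glands were closely alike, with an SD of 0.05, while NC glands had an SD of 0.30, and all CNT glands were above all NC glands. The change from CNT to treated glands was -0.39 (SE 0.10, adjusted p = 0.00631), with 9 of 10 treated glands below the CNT gland of their cow and the CF gland of cow 4 (8.75) above it. In CNT against NC glands at single time points neither BAX nor BAK1 passed (adjusted p between 0.0899 and 0.573). With the cow as a block BAX did at 24 h (adjusted p = 0.0437) and at 48 h (0.0459), and BAK1 at 48 h (0.0147) but not at 24 h (0.328).

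CASP4, the inflammatory caspase, was called on both of its probe sets. Probe set Bt.16018.1.S1_a_at read 8.59, 8.58, 8.46, 9.46 and 8.26 in NC glands and 11.44, 10.76, 10.84, 10.27 and 10.63 in CNT glands, again in the order of cows 4, 5, 1, 2 and 3. Probe set Bt.16018.1.S2_at read 9.27, 8.86, 8.56, 9.48 and 8.48 in NC and 11.14, 10.60, 10.74, 10.32 and 10.88 in CNT glands. Every CNT gland exceeded every NC and every treated gland for both probe sets. The treated glands reached from 7.93 to 9.54 (median 8.74) on the former and from 8.24 to 9.63 (median 9.18) on the latter.

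Over 5 cows CNT exceeded NC glands by 2.12 (SE 0.27, 4.35-fold, adjusted p = 3.59e-05) on Bt.16018.1.S1_a_at and by 1.81 (SE 0.20, 3.51-fold, adjusted p = 1.26e-05) on Bt.16018.1.S2_at of CASP4. Treated glands were lower than CNT glands by -2.00 (SE 0.23, adjusted p = 1.06e-05) and -1.69 (SE 0.17, adjusted p = 3.45e-06). Both probe sets were called at 24 h, with 2.52 (SE 0.37, adjusted p = 0.0278) and 1.81 (SE 0.26, adjusted p = 0.0273), and at 48 h, with 1.85 (SE 0.46, adjusted p = 0.0467) and 1.81 (SE 0.38, adjusted p = 0.0261). At 24 h both calls were lost without any 1 gland of NC or CNT except the CNT gland of cow 5 (adjusted p between 0.115 and 0.152), with differences that stayed at 2.18 to 2.52 and at 1.54 to 2.02. At 48 h the call of Bt.16018.1.S2_at was lost without an NC or CNT gland of cow 1 or 3, or without either cow (adjusted p between 0.0604 and 0.2), and that of Bt.16018.1.S1_a_at without any 1 gland or cow except cow 2 (adjusted p between 0.0537 and 0.224), and under median centring (0.0563) and quantile normalization (0.0674).

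**Figure D2:**
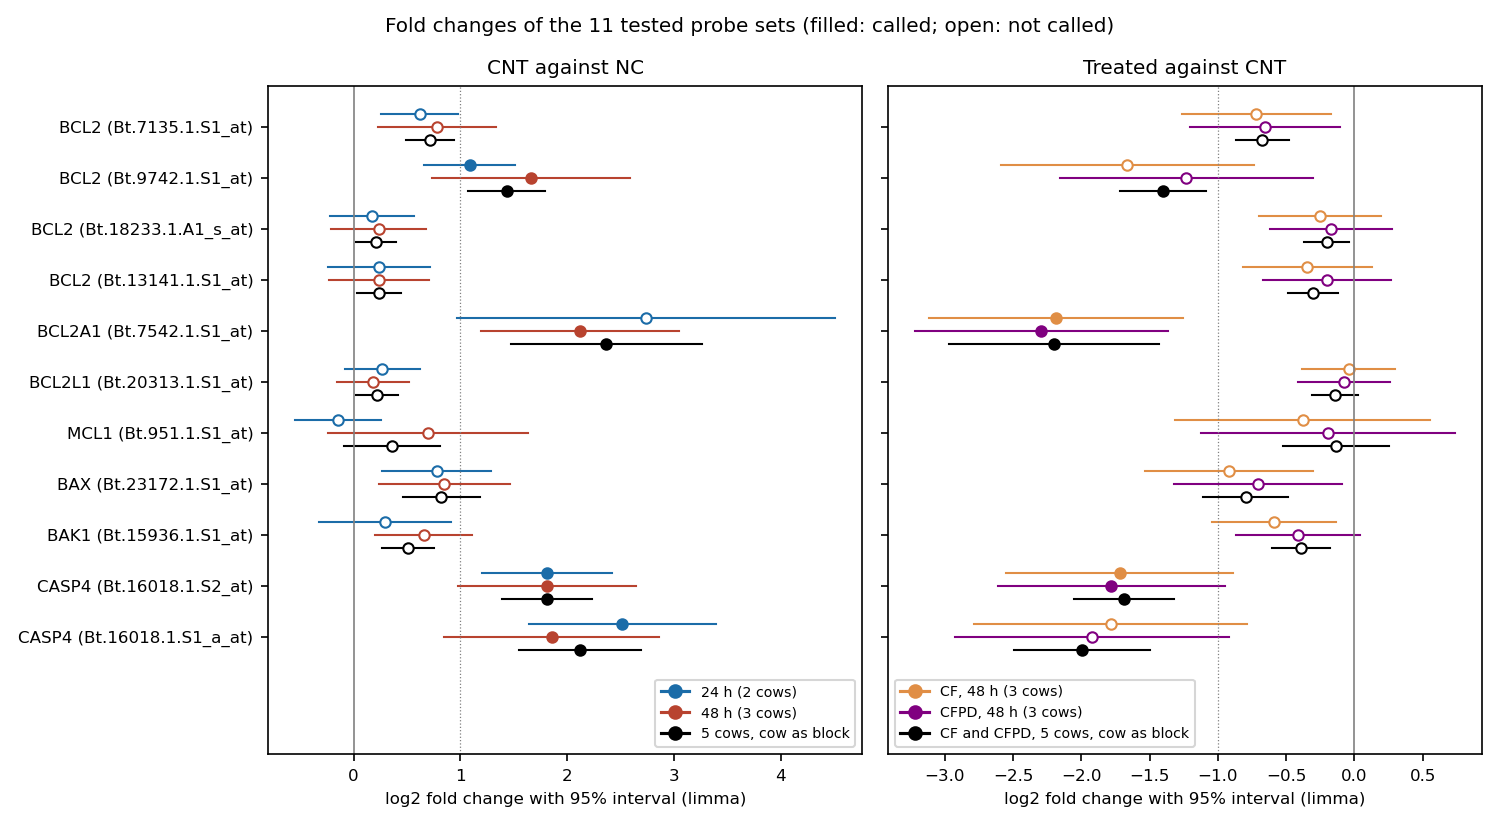
Differences (log2 fold change, horizontal axes, with 95% intervals from limma) of the 11 tested member probe sets between CNT and NC glands (left: 24 h, 48 h and 5 cows) and between treated and CNT glands (right: CF at 48 h, CFPD at 48 h, and both over 5 cows), with dotted lines at a 2-fold change and filled points where called. BCL2A1, CASP4 and BCL2 Bt.9742.1.S1_at were called over 5 cows in both panels, BAX reached 0.82 and -0.80, and the intervals of MCL1 include 0 throughout.

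Survival and death genes were then set side by side. In the comparison of CNT with NC glands over 5 cows, 2 of the 7 tested probe sets of the survival genes were called higher and 3 passed without regard to fold size, with a median of 0.36. Of the 2 death genes with a probe set, BAX and BAK1, neither was called and both passed without regard to fold size, with a median of 0.67. With 1 probe set per gene, that of the highest mean, the median of the 4 survival genes was 0.54, and the median of all probe sets was 0.07. At 24 h the medians were 0.27 for the 7 survival and 0.54 for the 2 death probe sets, and at 48 h 0.70 and 0.75. Between treated and CNT glands they were -0.30 and -0.59, with -0.09 over all probe sets.

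The survival genes thus spanned from 0.21 to 2.37 over 5 cows and held both the widest and the narrowest differences, with the death genes between them, at 0.51 and 0.82. No difference between both classes was tested, since each holds few genes and the survival probe sets are mostly of 1 gene. Of the survival genes, BCL2A1 and 1 probe set of BCL2 exceeded 2-fold, while MCL1 and BCL2L1 did not pass.

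At 24 h, 3 of 11 members were called higher in CNT than in NC glands (1.62% of 13004 probe sets), and 4 of 11 with the cow as a block (3.98%), which added BCL2A1. At 48 h, 4 of 11 were called higher both without (2.15% of 13000) and with the block (3.87%). The difference between the time points in these changes was tested in a fit of all 20 arrays, and no member and no other probe set passed, with 1052 of 13486 at an unadjusted p under 0.05 in limma. With the cow as a random block 69 probe sets passed, and without cow 5 10 did, again with no member among them. For BCL2A1 this difference was -0.62 (SE 0.86, 95% interval -2.45 to 1.21), for CASP4 Bt.16018.1.S1_a_at -0.66 (SE 0.69, 95% interval -2.12 to 0.80), and for BCL2 Bt.9742.1.S1_at 0.58 (SE 0.58, 95% interval -0.66 to 1.81).

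The cows did not rank alike for all members. Cow 2 had the narrowest difference between CNT and NC glands for BCL2A1 (0.78) and for both CASP4 probe sets (0.82 and 0.85), where the other 4 cows showed 1.75 to 2.85 for CASP4. The same cow had the widest difference for BAX (1.18), BAK1 (0.89) and both BCL2 probe sets that passed between CNT and NC glands (1.17 on Bt.7135.1.S1_at and 1.81 on Bt.9742.1.S1_at). Its NC gland held the highest levels of BCL2A1 and CASP4 among the NC glands. With 1 gland per group and cow these values carry no test.

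**Figure D3:**
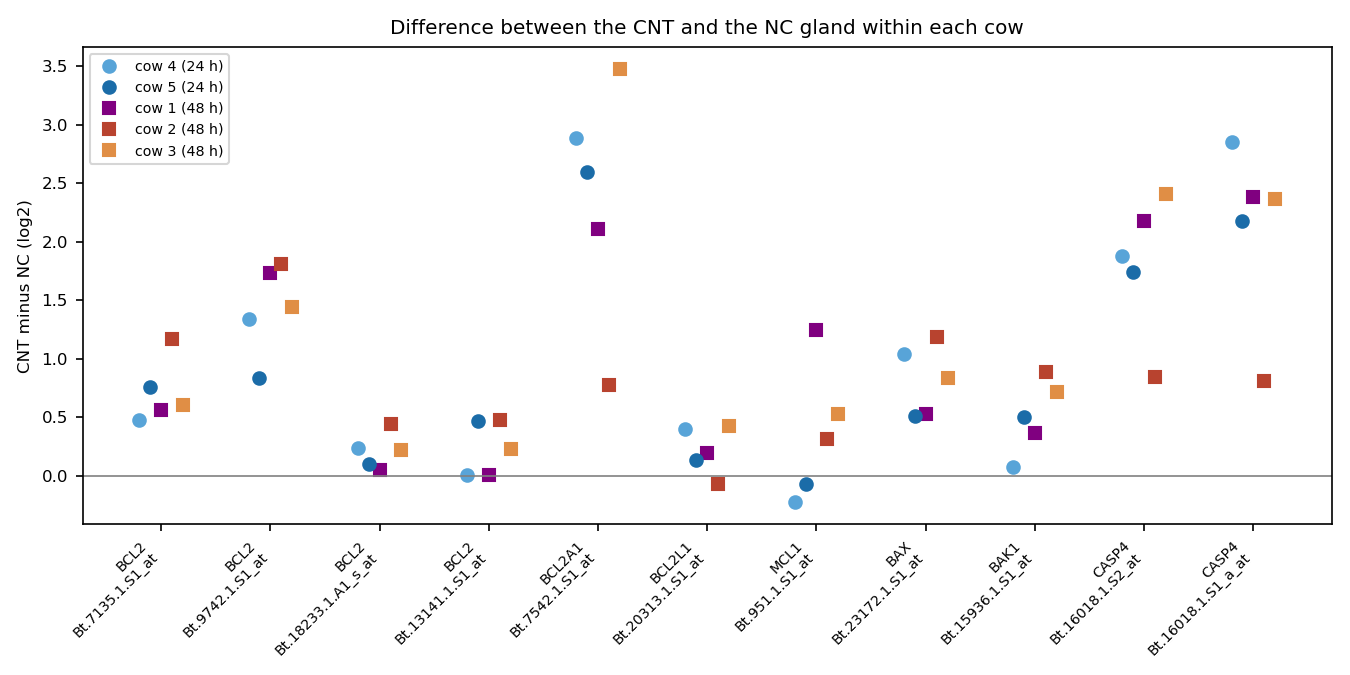
Difference of each member probe set between the CNT and the NC gland (log2, vertical axis) within each of the 5 cows, with 1 point per cow. Cow 2 lay lowest for BCL2A1 (0.78) and CASP4 and highest for BAX (1.18) and BAK1 (0.89).

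The 2 treatments were compared with CNT glands at each time point. Between CF and CNT glands at 24 h, 3 of 11 members were called lower (1.59% of all probe sets): BCL2 Bt.9742.1.S1_at (-1.36, adjusted p = 0.0229), CASP4 Bt.16018.1.S2_at (-1.73, adjusted p = 0.0307) and CASP4 Bt.16018.1.S1_a_at (-2.37, adjusted p = 0.0312). Leaving out either CF gland, or the CNT gland of cow 4, ended each of these calls (adjusted p between 0.0682 and 0.169), and a fit of all 20 arrays that of BCL2 (adjusted p = 0.127). BCL2A1 differed by -2.82 (SE 0.75, adjusted p = 0.0981) and was called with the cow as a block (adjusted p = 0.0344), where 4 of 11 members and 4.16% of all probe sets were called lower.

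Between CF and CNT glands at 48 h, 2 members were called lower (1.5%), BCL2A1 (-2.19, adjusted p = 0.0234) and CASP4 Bt.16018.1.S2_at (-1.72, adjusted p = 0.042). Without a gland of cow 1 or 3, or without either cow, both calls were lost, and that of CASP4 also without the CNT gland of cow 2 (adjusted p between 0.0577 and 0.403). With the cow as a block 4 were called (3.23%), with BCL2 Bt.9742.1.S1_at (-1.66, adjusted p = 0.00195) and the other CASP4 probe set (-1.79, adjusted p = 0.0173) added.

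Between CFPD and CNT glands at 24 h, 1 member was called lower (1.04%), BCL2 Bt.9742.1.S1_at (-1.29, adjusted p = 0.0294), and 3 with the block (3.49%), which added both CASP4 probe sets (-1.46 and -2.05, adjusted p = 0.006 and 0.0159). That of BCL2 was lost without any 1 gland of CNT or CFPD except the CNT gland of cow 5 (adjusted p between 0.0931 and 0.144), and with all 20 arrays in 1 fit (adjusted p = 0.181). BCL2A1 differed by -1.47 (SE 0.75, adjusted p = 0.353), and by 0.08 in cow 5 alone. Without the CFPD gland of cow 5 it differed by -2.81, which is given no p since 1 CFPD array is left. That gland was left out after its value was seen.

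At 48 h, 2 members were called lower in CFPD than in CNT glands (1.05%), BCL2A1 (-2.29, adjusted p = 0.0234) and CASP4 Bt.16018.1.S2_at (-1.78, adjusted p = 0.0448). The call of BCL2A1 was lost without a gland of cow 1 or 3 or either cow, and that of CASP4 without any 1 gland or cow except cow 2 (adjusted p between 0.0548 and 0.25). With the block 4 were called (2.37%), again with BCL2 Bt.9742.1.S1_at (-1.23, adjusted p = 0.0103) and the other CASP4 probe set (-1.92, adjusted p = 0.0148) added.

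With CF and CFPD exchanged in cows 2 and 5, an alternative chosen after seeing the data, 3 members were called in CF and 3 in CFPD against CNT glands at 24 h, the probe sets of CASP4 and BCL2 Bt.9742.1.S1_at in each case. Of all 13004 probe sets 243 in CF and 285 in CFPD were then called in either direction, against 278 and 182 by the labels. BCL2A1 then differed at 24 h by -1.61 in CF (adjusted p = 0.333) and by -2.68 in CFPD (adjusted p = 0.131). At 48 h BCL2A1 was still called in both, by -2.14 and -2.34 (adjusted p = 0.0263 and 0.0199), and CASP4 Bt.16018.1.S2_at in CF (-1.81, adjusted p = 0.0329) but not in CFPD (-1.69, adjusted p = 0.0541).

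No member and no other probe set was called between CFPD and CF glands, also with the labels exchanged in cows 2 and 5. In limma, 67 of 13004 probe sets at 24 h and 21 of 13000 at 48 h had an unadjusted p under 0.05, none of them a member. At 48 h the difference between CFPD and CF glands was -0.10 for BCL2A1 (95% interval -1.03 to 0.83), 0.43 for BCL2 Bt.9742.1.S1_at (-0.50 to 1.36), 0.22 for BAX (-0.40 to 0.83) and -0.14 for CASP4 Bt.16018.1.S1_a_at (-1.14 to 0.87). At 24 h that of BCL2A1 was 1.35 (-0.43 to 3.12) by the labels. With the labels exchanged in cows 2 and 5 its sign turns, since BCL2A1 then differed from CNT glands by -1.61 in CF and by -2.68 in CFPD glands. These intervals leave room for a 2-fold difference in BCL2A1 at both time points, and the labels of 2 of the 5 cows are in doubt. Against NC glands, CF glands had 0 probe sets called in limma (106 at 24 h and 82 at 48 h with an unadjusted p under 0.05), and so had CFPD glands (258 and 43), with no member among them.

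Marker genes of neutrophils moved with some of the members. Of 10 marker genes listed for neutrophils, 6 had a probe set and 5 were tested, and all 5 (CXCR1, S100A8, S100A9, S100A12 and NCF1) were called higher in CNT than in NC glands over 5 cows, with a median difference of 4.43. ITGAM lay at a mean of 3.77 in NC and 3.94 in CNT glands and was not tested. The filter kept any probe set above the array median in as many arrays as 1 group holds. A gene high in CNT glands alone thus passed it, and one low throughout did not. Mean levels in NC, treated and CNT glands were 5.54, 5.88 and 10.14 for CXCR1 and 5.98, 6.51 and 11.46 for S100A9. That all tested genes were called is therefore fixed in part by the filter. The mean of the 6 ranged from 6.05 to 7.04 in NC, from 9.14 to 11.35 in CNT and from 6.41 to 7.09 in treated glands. CNT glands stood apart from both other groups, which overlapped. All 5 were called lower in treated than in CNT glands, and none between treated and NC glands.

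Taking each value as a deviation from the mean of its cow, over 20 arrays of 5 cows that share their groups, Pearson's r with the neutrophil mean was 0.969 and 0.955 for the CASP4 probe sets, 0.926 for BCL2 Bt.9742.1.S1_at, 0.889 for BCL2A1 and 0.842 for BAX. It was lower for BCL2L1 (0.679), BAK1 (0.639) and MCL1 (0.327), and negative for BCL2 Bt.13141.1.A1_at (-0.791). Some other marker means gave values of like size. For genes of monocytes and macrophages r was 0.872 with BCL2A1. For genes of the milk-secreting epithelium it was -0.9 with BCL2 Bt.9742.1.S1_at, -0.885 with Bt.7135.1.S1_at (0.863 for neutrophils) and -0.798 with BAK1. Genes of epithelium in general (KRT8, KRT18, KRT19, EPCAM and CDH1) gave these probe sets the opposite sign, with r of 0.36, 0.343 and 0.25. For T cell genes it was 0.216 with BCL2A1. The members thus did not vary with neutrophil genes alone, and the part of neutrophil entry in any of these changes was not tested.

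**Figure D4:**
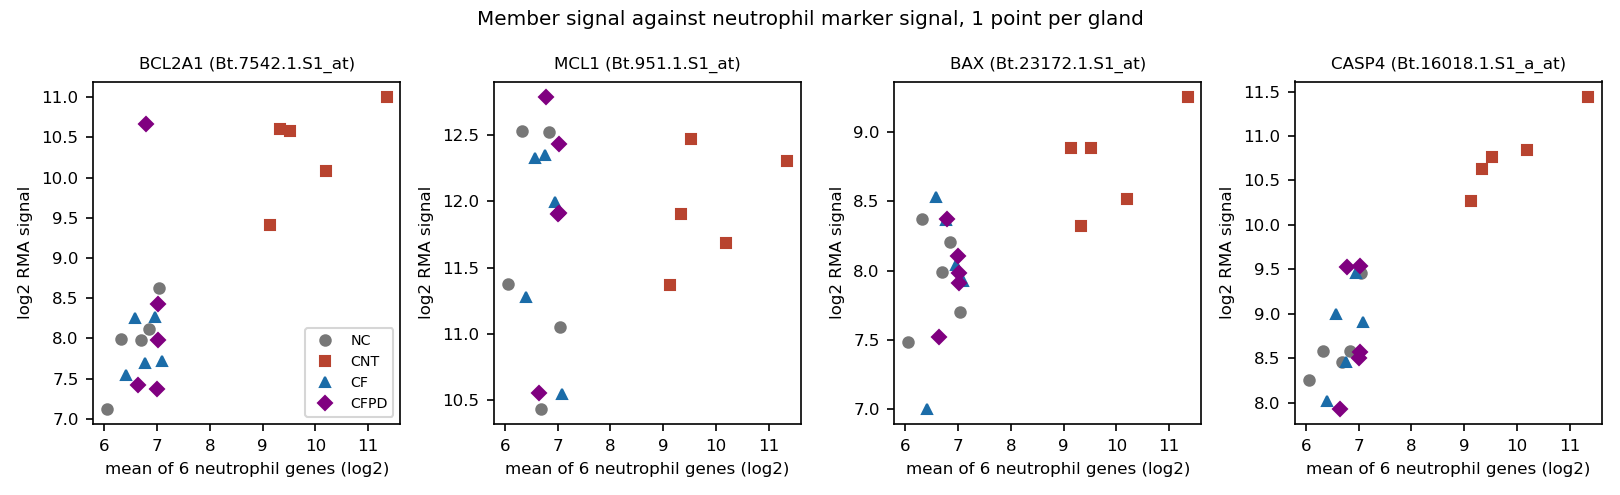
Level (log2 signal, vertical axes) of BCL2A1, MCL1, BAX and CASP4 Bt.16018.1.S1_a_at in the 20 glands against the mean log2 signal of 6 neutrophil genes (horizontal axes), with 1 point per gland coloured by group. The 5 CNT glands lie apart at a neutrophil mean of 9.14 to 11.35. For BCL2A1 the gland of cow 5 labelled CFPD, a label in doubt, stands at 10.66 with a neutrophil mean of 6.79.

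Fewer markers of other cells were called. Of 5 pan-leukocyte genes 3 were called higher in CNT than in NC glands over 5 cows, and of 5 genes of monocytes and macrophages 2 were called higher and 1 lower. At the adjusted p alone all 5 pan-leukocyte genes were higher, with a median difference of 1.37. Of the monocyte and macrophage genes 4 were then higher and 1 lower. No T cell gene was called of 5 tested, and the B cell genes, at 5.30 to 6.29 on average per gland, were not tested. Genes of the milk-secreting epithelium, the defining ones of this tissue, averaged 14.97 to 15.35 in every gland, near the highest signal of the table, with none of 6 called and 3 lower at the adjusted p alone.

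The CFPD gland of cow 5 was looked at further because its BCL2A1 level stood out, a choice made after values were seen. Its neutrophil mean of 6.79 lay inside the range of the treated glands, while BCL2A1, at 10.66, lay above the highest of the other 9 treated glands (8.42). The genes most like BCL2A1 also had this gland high, which their choice fixes in part, since likeness was taken over arrays that include it. CXCL8, the chemokine that draws neutrophils, was at 12.21 there, against 5.37 to 7.87 in the other 9 and 11.39 in the CNT gland of that cow. BIRC3, an inhibitor of apoptosis that NF-kB switches on, was at 11.80 and 11.94 on its 2 probe sets, against 8.18 to 9.48 and 9.65 to 10.43, and TLR2, a receptor for bacterial lipoproteins, at 12.24 against 10.33 to 11.39.

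Genes were ranked for likeness to each called member by Pearson's r of the deviations from the mean of the cow over the 20 arrays. For BCL2A1 the 5 most alike probe sets were of BIRC3 (0.981 and 0.967), TLR2 (0.975), SDCBP (0.957) and CXCL8 (0.951). For BCL2 Bt.9742.1.S1_at they were of HMOX1 (0.99), LDHA (0.979), SPG21 (0.975), LAMP1 (0.973) and S100A9 (0.972). For CASP4 Bt.16018.1.S2_at they were of QSOX1 (0.97), S100A8 (0.969), TSPO (0.968), LOC100296618 (0.966) and S100A12 (0.966), and for CASP4 Bt.16018.1.S1_a_at of TSPO (0.964), S100A8 (0.964), CXCR1 (0.962), S100A12 (0.961) and KPNA3 (0.96). Neutrophil markers of the list above stand among the 5 for CASP4 and BCL2 and not among those for BCL2A1. Between members, r was 0.975 for the CASP4 pair, 0.923 and 0.937 for BCL2A1 with CASP4, and 0.91 and 0.914 for BAX with BCL2 Bt.7135.1.S1_at and Bt.9742.1.S1_at. All of these are descriptions, since the glands share their groups.

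Other genes of cell death were taken from lists of 71 genes, of which 40 had a probe set and 31 were tested. Over 5 cows 4 of the 31 were called higher in CNT than in NC glands and 1 lower, where 3.85% and 1.16% of all probe sets were, and 15 passed as higher without regard to fold size (20.8% of all). In the inflammasome list, 2 of 4 tested genes were called higher and 1 lower. PYCARD, the adaptor of the inflammasome, rose by 1.95 (SE 0.23, adjusted p = 2.24e-05), from 6.18 ± 0.34 to 8.13 ± 0.73 (SD, n = 5). Its NC mean lay below the array medians, so the filter may have kept it through its CNT glands alone. IL18, a cytokine that CASP1 matures, rose by 1.70 (SE 0.27, adjusted p = 0.000236). GSDMB, a gasdermin that forms membrane pores in humans, fell by 1.01 (SE 0.15, adjusted p = 0.000123), and GSDMD, which CASP4 cleaves in humans, differed by 0.00 (SE 0.08).

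Of the other caspases, CASP1, the inflammatory caspase that matures interleukin 1 beta, rose by 1.41 (SE 0.18, adjusted p = 4.37e-05) while CASP6 (0.33, adjusted p = 0.0606) and the initiator CASP9 (0.05, adjusted p = 0.768) did not pass. Among inhibitors of apoptosis BIRC3 rose by 1.39 (SE 0.32, adjusted p = 0.00397), and CFLAR, a brake on CASP8, passed at 0.73 (SE 0.14, adjusted p = 0.00132) without reaching 2-fold. None of 4 tested genes of the BH3-only and other death-promoting BCL2 proteins was called, with BAD at 0.42 (adjusted p = 0.0128) and BNIP3L at 0.38 (adjusted p = 0.049) passing without regard to fold size. BCL2L2, a further survival gene, differed by -0.12 (adjusted p = 0.377). None of 7 death receptor genes, 3 genes of the apoptosome and 2 of p53 regulation was called, where 3.85% of all probe sets were called higher. Without regard to fold size 3 of the 7, 1 of the 3 and 1 of the 2 passed as higher (20.8% of all probe sets). DFFA, the inhibitor of the nuclease that cuts DNA in apoptosis, was called at 24 h (1.02, adjusted p = 0.0335) and passed under 2-fold over 5 cows (0.93, adjusted p = 0.000227).

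In treated glands the same 5 genes were called in the opposite direction against CNT glands (3.36% of all probe sets lower and 0.86% higher), with CASP1 at -1.46, BIRC3 at -1.28, PYCARD at -1.88, IL18 at -1.76 and GSDMB at 1.02 (adjusted p between 5.32e-06 and 0.00199). None of the 31 was called between treated and NC glands. At single time points PYCARD was called at 24 h (2.16, adjusted p = 0.0484), and CASP1 (1.60), PYCARD (1.81), BIRC3 (1.39) and GSDMB (-1.21) at 48 h (adjusted p between 0.0057 and 0.0383).

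**Figure D5:**
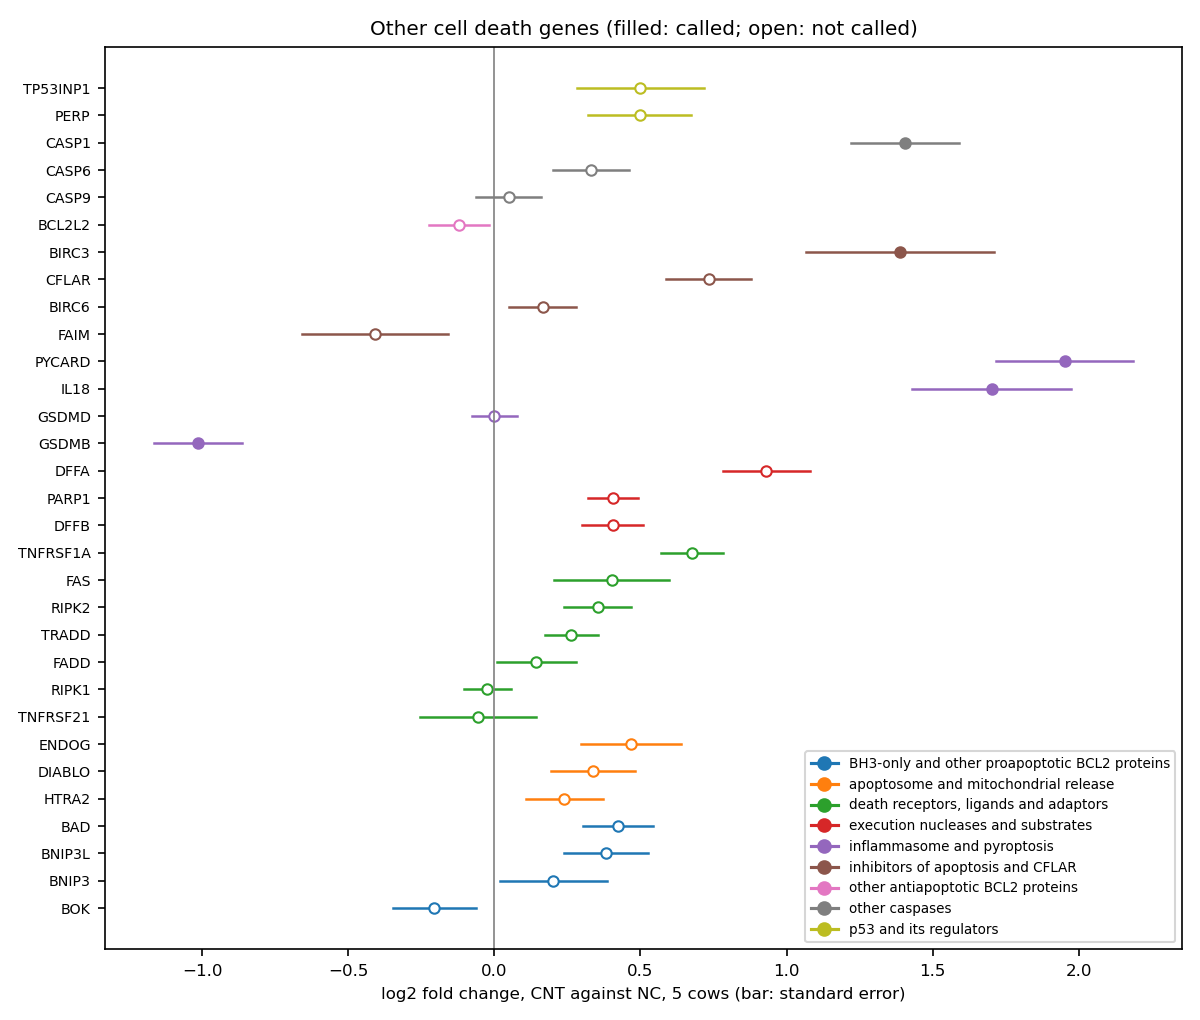
Difference between CNT and NC glands over 5 cows (log2 fold change, horizontal axis, with SE from limma) of the 31 tested genes of the other cell death lists, grouped by list, with filled points where called. PYCARD (1.95), IL18 (1.70), CASP1 (1.41) and BIRC3 (1.39) were called higher and GSDMB (-1.01) lower.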

How the data were processed

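RNA of 20 glands was measured on 1 array each. Values are log2 signals, deposited as the authors obtained them by RMA (package affy, version not given in the sources used here), and were not normalized again. Of 24128 probe sets 112 are controls and were left out. Of the other 24016, the annotation of the array gives 1 symbol to 13292, several to 86 and none to 10638. Tested were those that exceeded their array's median in 2 or more arrays at 24 h (13004) or 3 or more at 48 h (13000), and 13486 in fits of 20 arrays. A probe set high in 1 group alone could thus be tested. No 2 arrays held identical values. The number of arrays limits the precision.

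Each time point had 1 fit of its 4 groups in limma (3.58.1, R 4.3.3), with residual degrees of freedom of 4 at 24 h and 8 at 48 h. The study's methods name limma, and the filter and the layout of the fits were chosen here. The fit over 5 cows held NC, CNT and treated glands with the cow as a block (13 degrees of freedom). Both treated glands of a cow entered it singly, so the spread rests in part on how they differ from each other. Its p-values in limma may therefore be too small for 5 animals. The standard error is that of the moderated variance. Benjamini-Hochberg adjustment ran over all probe sets of a comparison. The steps were tested on simulated data, which held no effect of the cow in the fits of single time points. No share of detected changes was required of the fit at 24 h.

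Glands of 1 cow pair because they come from the same animal, which the labels number. Their deviations from the group means correlated at 0.521 on average within cows at 24 h and 0.448 at 48 h.

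Every member is named, and of other cell death genes those called in CNT against NC glands, with some others given as values. The likeness rule names 5 probe sets for each called member. Members and gene lists were chosen with earlier results of these data known. Where a listed gene has several probe sets, the one with the highest mean stands for it. Alternatives were the cow as a block, all arrays in 1 fit, other filters, priors and normalizations, exchanged CF and CFPD labels and leaving out glands or cows. The exchange in cows 2 and 5 and the fit without the CFPD gland of cow 5 were added after seeing the data.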

Additional observations from a re-analysis of the deposited data

Results flagged for a closer look

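The difference between CNT and NC glands in MCL1 had opposite signs at the 2 time points. It was -0.23 and -0.07 in the 2 cows of 24 h and 1.25, 0.31 and 0.53 in the 3 cows of 48 h. The difference between the time points, 0.84 on the log2 scale (SE 0.58, 95% interval -0.40 to 2.08), did not pass in limma over all 20 arrays (adjusted p = 0.782). Time points hold different cows, so that the cow cannot be told apart from the time.

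In 2 of 36 groups of member levels (12 probe sets in NC, CNT and treated glands), the highest or lowest gland lay far from the nearest other one for the range of its group, which chance gives in about 1 of 20 groups. BCL2A1 was at 10.66 in the gland of cow 5 labelled CFPD, with the next treated gland at 8.42 (n = 10). CASP4 Bt.16018.1.S1_a_at was at 9.46 in the NC gland of cow 2, with the next NC gland at 8.59 (n = 5). Time points are pooled in these groups.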

How the results depend on the processing

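Over 5 cows, the 4 called member probe sets stayed called in both comparisons under every alternative run, leaving out any 1 cow included. Without a fold threshold 7 members were called between CNT and NC and 9 between treated and CNT glands. With 1 probe set per gene, the median of the survival genes was 0.45 at 24 h, 0.74 at 48 h and 0.54 over 5 cows between CNT and NC glands. Counts at single time points changed more, and so did those of all probe sets called. In CFPD against CNT glands at 24 h all calls went from 182 to 646 with the fixed block, and to 240 with all 20 arrays in 1 fit. In CNT against NC glands at 48 h they went from 346 to 295 under median centring and to 253 under quantile normalization. Without cow 1 they fell to 0 there. The member counts that follow are thus not particular to the members. With the cow as a replicate block, fixed or random, 3 members in place of 1 were called in CFPD against CNT glands at 24 h, and 4 in place of 2 in CF and in CFPD against CNT glands at 48 h; the block changed no other count by over 1.5 times. With all 20 arrays in 1 fit, 0 were called in CFPD against CNT at 24 h and 4 in CF against CNT at 48 h. Median centring gave 2 in CNT against NC at 48 h, and 1 each in CF and CFPD against CNT at 48 h. Quantile normalization within the time point gave 2, 1 and 1 there, and 2 in CFPD against CNT at 24 h. A filter on the mean gave 1 in CFPD against CNT at 48 h. Exchanging CF and CFPD labels in cows 1 and 4 gave 3 in CFPD against CNT at 24 h, and 5 for CF and 1 for CFPD at 48 h, and in cows 2 and 5 3 in CFPD against CNT at 24 h and 1 at 48 h. Leaving out 1 gland or cow gave 0 to 3 in CNT against NC, CF against CNT and CFPD against CNT at 24 h, and at 48 h 0 to 3 in CNT against NC, 0 to 4 in CF against CNT and 0 to 3 in CFPD against CNT; a lone array of a group is there assumed to vary like the others, and without a cow of 24 h the spread is that of the 48 h arrays alone. Counts hide exchanges: with all 20 arrays in 1 fit BCL2 Bt.9742.1.S1_at lost its calls at 24 h while BCL2A1 gained in CNT against NC and CF against CNT glands. MCL1 in treated against CNT glands over 5 cows turned to 0.03 under quantile normalization of all arrays, and ranged from -0.32 to 0.11 without 1 cow. BCL2A1 in CFPD against CNT glands at 24 h ranged from -3.02 to 0.08 without 1 gland or cow. Of 962 values of single probe sets under alternatives 805 kept direction and side of the threshold, 109 lost and 45 gained a call, and 3 changed sign. The causes were not tested.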
